A study of Homo sapiens with 12 samples.

Results

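Laminin chains and nidogens, the proteins that make up the non-collagen framework of basement membranes, were followed through 9 genes whose rows were picked by symbol from 23273 genes listed: the α chains LAMA1, LAMA2, LAMA4 and LAMA5, the β chains LAMB1 and LAMB2, the γ chain LAMC1, and the nidogens NID1 and NID2. A laminin is a cross-shaped trimer of 1 α, 1 β and 1 γ chain that is assembled inside the cell and secreted whole. The α chain carries the globular end that binds integrins and dystroglycan on the cell surface, the β and γ chains complete the coiled stem, and nidogens bind the γ1 short arm and tie laminin to collagen IV. Cells of the melanocyte lineage sit on such a membrane in the skin.

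RNA came from COLO858 and MMACSF, established BRAF-mutant human melanoma cell lines that are sensitive to the RAF inhibitor vemurafenib. Each line was plated in 10-cm dishes and treated the next day. The treatment was the vehicle DMSO (no drug), 0.2 μM vemurafenib for 24 h, or 0.2 μM vemurafenib for 48 h. Every group holds 2 replicates of a line, 12 libraries in all; how long the DMSO dishes stood is not in the labels, and both drug times of a line were set against the same DMSO pair. The question was how transcripts responded to the drug in each line, and whether the lines responded differently. Each line is grown as a whole culture, so fewer cells making a transcript and less transcript per cell cannot be told apart, and the p-values measure the spread between these dishes and libraries.

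Values are FPKM (sequenced fragments divided by transcript length and by the mapped total), which are per length. Genes of a library were set side by side on that scale. Dividing by length does not remove a replicate difference that went with GC content, given below. The lines were deposited as separate tables, so that only changes, and not levels, were compared between them. Libraries held 11679 to 11972 genes at 1 FPKM or more, and a single small RNA gene, MIR4461, took 14.1% to 43.4% of the summed FPKM. The depth of sequencing is unknown. Melanocytic markers were present in every library, with the 8 genes summing to 702 to 717 FPKM in COLO858 under DMSO, 3922 to 4158 at 24 h and 4144 to 4149 at 48 h, and to 11160 to 11373, 15589 to 16776 and 16831 to 17555 in MMACSF. MLANA, a pigment cell antigen, had a mean under 1 FPKM in all 3 COLO858 groups and 1044 FPKM in MMACSF under DMSO. TYR, another of the 8, ran from 0.282 to 1.21 FPKM over the COLO858 libraries. Means of 1 FPKM or more were held by 6, 7 and 6 of the 8 in COLO858 under DMSO, at 24 h and at 48 h.

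Chromosome positions are given on GRCh37, the build named hg19 in the submitters' processing notes, from GENCODE. LAMC1 lies at chr1:182992555-183114727 on the plus strand with 28 exons in its canonical transcript, and LAMA2 at chr6:129204283-129837711, also on the plus strand, with 65 exons. The others are on the minus strand: LAMA1 at chr18:6941741-7117796 (63 exons), LAMA4 at chr6:112429134-112576141 (39 exons), LAMA5 at chr20:60883011-60942368 (80 exons), LAMB1 at chr7:107564244-107643658 (34 exons), LAMB2 at chr3:49158547-49170551 (32 exons), NID1 at chr1:236139130-236228409 (20 exons) and NID2 at chr14:52471527-52535777 (22 exons). Among the members, 3 overlap a gene on the other strand that is itself expressed: ADRM1 at LAMA5 (58.0 to 185 FPKM), DLD at LAMB1 (39.1 to 86.6 FPKM) and C14orf166 at NID2 (74.4 to 161 FPKM). The libraries were made with a kit that keeps strand and were mapped at default settings, but whether the strand was used in counting is not given in the sources used here, so the values of LAMA5, LAMB1 and NID2 carry that uncertainty. The pseudogene LAMB2P1 was listed at 0.0641 to 0.450 FPKM.

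The promoters of the 3 members that passed the test for higher values in COLO858 at 48 h are shown, because the data turn on these transcripts. Each is the 250 bases before the transcript start in RefSeq on GRCh38.p14, read 5′ to 3′ on the gene's own strand, with the GC box (GGGCGG, searched on both strands) in capitals. They lie at chr1:183023170-183023419 (plus strand, LAMC1), chr3:49133051-49133300 (minus strand, LAMB2) and chr14:52069060-52069309 (minus strand, NID2).
LAMC1: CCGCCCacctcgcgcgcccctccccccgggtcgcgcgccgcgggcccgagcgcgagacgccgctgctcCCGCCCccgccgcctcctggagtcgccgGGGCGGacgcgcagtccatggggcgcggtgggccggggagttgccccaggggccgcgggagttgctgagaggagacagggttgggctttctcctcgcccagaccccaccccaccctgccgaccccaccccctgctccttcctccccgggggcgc
LAMB2: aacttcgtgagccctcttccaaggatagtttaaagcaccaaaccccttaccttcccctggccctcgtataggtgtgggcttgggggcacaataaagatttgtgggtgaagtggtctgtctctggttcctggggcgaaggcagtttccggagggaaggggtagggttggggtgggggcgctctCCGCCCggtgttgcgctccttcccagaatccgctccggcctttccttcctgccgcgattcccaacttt
NID2: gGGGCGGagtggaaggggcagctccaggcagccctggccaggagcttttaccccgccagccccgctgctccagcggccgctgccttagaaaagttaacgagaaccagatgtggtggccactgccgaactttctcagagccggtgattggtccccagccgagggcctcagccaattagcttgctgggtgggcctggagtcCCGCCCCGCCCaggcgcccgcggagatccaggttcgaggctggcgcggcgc

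The LAMC1 sequence is 79.6% G or C, NID2 68.0% and LAMB2 58.4%, against a median of 58.0% over 27305 promoters of the same length. LAMC1 and NID2 each hold 3 GC boxes and LAMB2 holds 1. Over the 8 members with a RefSeq promoter entry (all but LAMA1), 6 hold a GC box, against 42.3% of all promoters. The AP-1 motif TGANTCA, searched on both strands, is in 0 of the 8 and in 6.60% of all promoters. The same holds for CACGTG (6.49%), CATGTG (9.54%), ACAATG (9.45%) and TATAAA (11.1%), each in 0 of the 8. These are letters in a window and are not evidence of binding or of its absence.

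**Figure D1:**
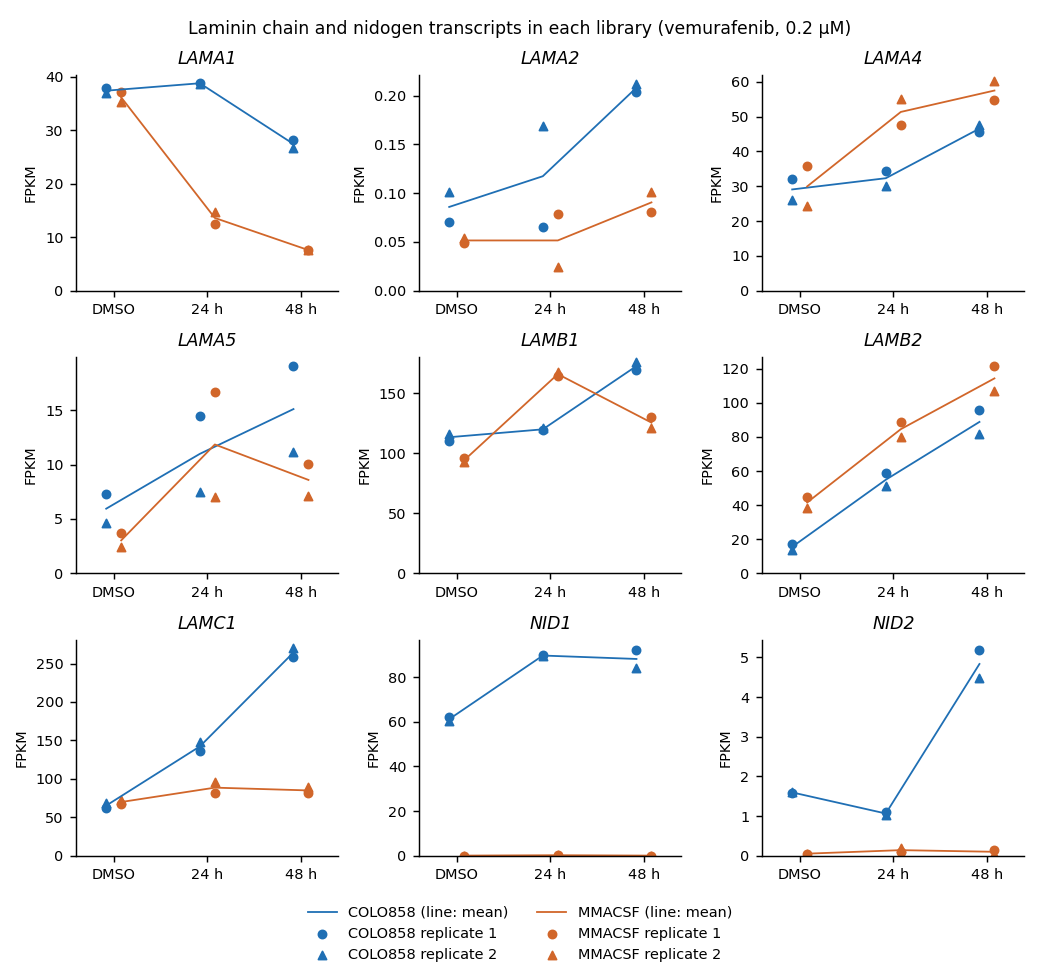
FPKM (vertical axis, from 0, with its own range in each panel) of each of the 9 genes under DMSO and after 24 and 48 h of vemurafenib. Circles and triangles are the single libraries of replicate 1 and 2, lines join the group means, and the colours are the cell lines; LAMC1 and LAMB2 climb in COLO858 at each time and LAMA1 steps down in MMACSF.

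Of the 9 genes, 8 could be tested in COLO858 and 6 in MMACSF, those with a group mean of 1 FPKM or more in some group of the line. LAMA2 passed in neither line, and NID1 and NID2 did not pass in MMACSF. A change was called at an adjusted p under 0.01 (limma on log2(FPKM + 1), Benjamini-Hochberg over all genes tested). In COLO858 the 24 h comparison called 2 members, both higher, against 9.82% of 12696 genes called in either direction, and the 48 h comparison 3 members, all higher, against 9.47%. In MMACSF 3 members were called at 24 h (2 higher, 1 lower), against 5.83% of 12599 genes, and 2 at 48 h (1 in each direction), against 8.83%. Over the tested members of COLO858 the median log2 fold-change was 0.35 at 24 h and 0.92 at 48 h. For MMACSF it was 0.80 and 0.68, while the median of all tested genes lay between −0.014 and 0.073 in these comparisons. Both 48 h libraries were above both DMSO libraries for 7 of 8 members in COLO858, against 29.9% of all genes, and for 5 of 6 in MMACSF, against 35.7%.

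The replicate number in the labels bears on many of these calls. With it as a block in the fit, the members called at 24 and 48 h were 4 and 8 in COLO858 (45.0% and 43.7% of all genes) and 4 and 3 in MMACSF (26.1% and 30.1%). The adjusted p of that fit is given as "with the block" beside each gene whose call it changes. Leaving out any 1 library of the groups compared ended all 11 calls made within a line, with adjusted p between 0.0107 and 0.0658 across these refits.

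Among the α chains, LAMA1, which pairs with β1 and γ1 in the laminin of early embryonic and some epithelial membranes, behaved differently in the lines. In COLO858 its FPKM was 38.0 and 36.9 under DMSO, 38.9 and 38.8 at 24 h, and 28.2 and 26.7 at 48 h. The 48 h pair lies below the other 4 libraries, a log2 fold-change of −0.43 (SE 0.12) with an adjusted p of 0.0513 by limma, or 0.00215 with the block. In MMACSF it was 37.1 and 35.2 under DMSO, 12.5 and 14.7 at 24 h, and 7.58 and 7.60 at 48 h. These 3 pairs do not overlap, and LAMA1 fell by 1.35 on the log2 scale at 24 h (SE 0.13, adjusted p = 0.00405) and by 2.11 at 48 h (SE 0.13, adjusted p = 0.000956). The mean at 48 h was 0.210 of the DMSO mean.

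LAMA4, the α chain of vessel and mesenchymal laminins, held 32.2 and 26.0 FPKM in COLO858 under DMSO, 34.5 and 30.2 at 24 h, and 45.5 and 47.7 at 48 h. Only the 48 h pair stands clear of DMSO, at a log2 fold-change of 0.67 (SE 0.16), with an adjusted p of 0.0355, or 0.00593 with the block. In MMACSF it was 35.7 and 24.2 under DMSO, 47.7 and 55.1 at 24 h, and 54.7 and 60.3 at 48 h. Both drug pairs were above both DMSO libraries, but the DMSO libraries were far apart and the 48 h difference of 0.94 on the log2 scale (SE 0.21) had an adjusted p of 0.0269.

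LAMA5, the broadly expressed α chain of mature epithelial and vessel membranes, was lower in level. COLO858 libraries held 7.28 and 4.60 FPKM under DMSO, 14.5 and 7.49 at 24 h, and 19.1 and 11.2 at 48 h, while MMACSF libraries held 3.66 and 2.39, 16.7 and 6.98, and 10.0 and 7.13. Every drug library was above every DMSO library of its line, yet none of the 4 differences passed: log2 fold-changes of 0.75 and 1.20 (COLO858) and of 1.58 and 1.25 (MMACSF) had adjusted p from 0.0516 to 0.23. With the block, 3 of the 4 passed, with an adjusted p of 0.00315 and 0.000938 in COLO858 and 0.00691 at 24 h in MMACSF. LAMA2, the α chain of muscle and nerve laminin, stayed between 0.0242 and 0.212 FPKM in all 12 libraries.

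LAMB1, the β chain shared by most laminins of growing tissue, was the highest member in both lines under DMSO. In COLO858 it held 110 and 116 FPKM, 119 and 121 at 24 h, and 169 and 176 at 48 h. The 48 h pair was apart from the rest, at a log2 fold-change of 0.60 (SE 0.11), with an adjusted p of 0.0162, or 0.000614 with the block. MMACSF libraries held 96.0 and 92.3 FPKM under DMSO, 164 and 168 at 24 h, and 130 and 121 at 48 h. Here the highest pair was at 24 h, where LAMB1 rose by a log2 fold-change of 0.81 (SE 0.10, adjusted p = 0.00759). The change from 24 to 48 h in MMACSF, −0.40, was not called (adjusted p = 0.415, or 0.0514 with the block). At 48 h the difference from DMSO was 0.41 (SE 0.10), with an adjusted p of 0.04, or 0.00561 with the block.

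LAMB2, the β chain of mature basement membranes of vessels, kidney and synapse, was called in both lines at both times. In COLO858 it held 17.4 and 13.6 FPKM under DMSO, 58.6 and 51.1 at 24 h, and 96.0 and 81.7 at 48 h. The 3 pairs do not overlap, and LAMB2 rose by a log2 fold-change of 1.77 at 24 h (SE 0.18, adjusted p = 0.00334) and 2.45 at 48 h (SE 0.18, adjusted p = 0.00147). In MMACSF it held 45.0 and 38.1, then 89.0 and 80.2, then 121 and 107 FPKM, again with no overlap. It rose by 1.01 at 24 h (SE 0.14, adjusted p = 0.00949) and 1.44 at 48 h (SE 0.14, adjusted p = 0.00297). This 24 h call was lost with no minimum, after rescaling of the libraries, without trend and with only the 4 libraries compared. Its adjusted p by limma reached 0.0234 in these fits. The 48 h means were 5.74-fold and 2.75-fold the DMSO means of COLO858 and MMACSF.

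LAMC1, the γ1 chain that nearly all laminins contain and that nidogens bind, was called in COLO858 alone. COLO858 libraries held 61.6 and 68.9 FPKM under DMSO, 136 and 148 at 24 h, and 258 and 271 at 48 h. LAMC1 rose by a log2 fold-change of 1.11 at 24 h (SE 0.12, adjusted p = 0.00415) and 2.00 at 48 h (SE 0.12, adjusted p = 0.0011), 4.05-fold in the means, and passed from rank 1510 to rank 290 by FPKM among the genes at 1 FPKM or more. MMACSF libraries held 67.6 and 72.2 FPKM under DMSO, 81.5 and 95.7 at 24 h, and 81.1 and 88.8 at 48 h. All 4 drug libraries were above both DMSO libraries, by log2 fold-changes of 0.33 and 0.28 with adjusted p of 0.13 and 0.176, and the interval of the 48 h difference ran from −0.046 to 0.60.

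NID1 and NID2, which link laminin to collagen IV, were measured above the minimum in COLO858. NID1 held 61.9 and 60.4 FPKM there under DMSO, 89.9 and 89.3 at 24 h, and 92.1 and 84.0 at 48 h. Both drug pairs were above DMSO and overlapped each other, with log2 fold-changes of 0.54 and 0.52, adjusted p of 0.0264 and 0.0308, and blocked values of 0.00141 and 0.00165. NID2 held 1.59 and 1.61 FPKM, 1.09 and 1.04 at 24 h, and 5.19 and 4.48 at 48 h. It was lowest at 24 h and highest at 48 h, where it rose by 1.16 (SE 0.14, adjusted p = 0.00532) on the log2(FPKM + 1) scale, a scale that understates the 3.03-fold difference in the means. In MMACSF, NID1 ranged from 0.0421 to 0.324 FPKM and NID2 from 0.0493 to 0.190.

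From 24 h to 48 h, 1 member was called in COLO858, against 1.38% of all genes: NID2 rose by a log2 fold-change of 1.50 (SE 0.14, adjusted p = 0.00785). With the block, 5 were called there, against 18.0% of all genes: LAMC1 at 0.89 (adjusted p = 0.022, or 0.000999 with the block), LAMB2 at 0.68 (0.107, or 0.00277), LAMB1 at 0.52 (0.0596, or 0.00223) and LAMA1 at −0.49 (0.0905, or 0.00385) joined NID2. In MMACSF 0 of 6 members were called by limma between the drug times, against 0.222% of all genes, with 3 members at an unadjusted p under 0.05 and 0 called with the block. The nearest of these in size was LAMA1, at a log2 fold-change of −0.76 with an adjusted p of 0.175.

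**Figure D2:**
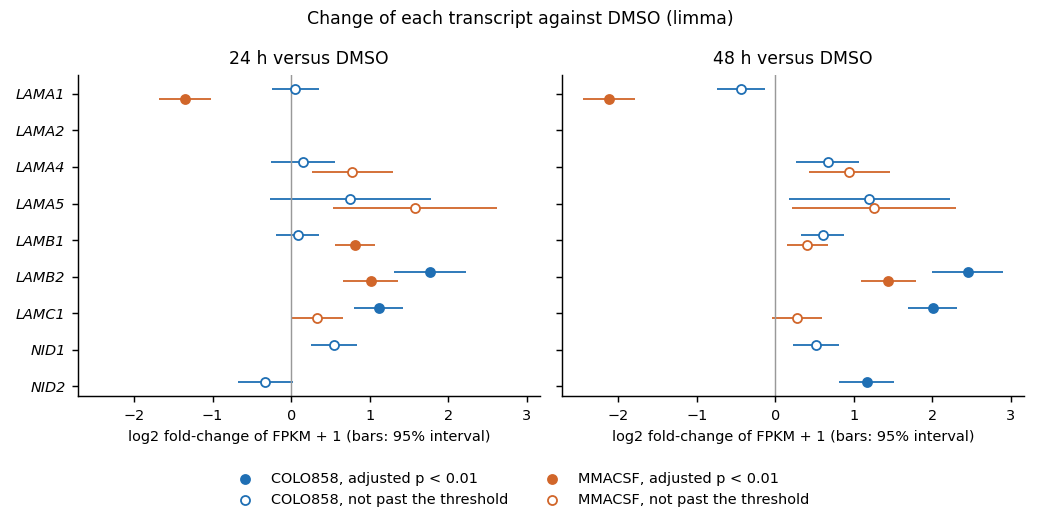
Log2 fold-change of FPKM + 1 against DMSO (horizontal axis) for each gene at 24 h (left) and 48 h (right), with 95% intervals from limma. Filled points passed the adjusted p threshold and open points did not; LAMB2 is filled in both lines at both times, LAMC1 in COLO858 only, LAMA1 in MMACSF only, and genes with no point in a line were under the minimum there.

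The difference between the lines' changes was tested directly, as COLO858 minus MMACSF on the log2 scale, for 8 of the 9 members. At 24 h 2 were called, against 3.71% of 13595 genes: LAMA1 at 1.40 (SE 0.15, adjusted p = 0.00107) and LAMB1 at −0.73 (SE 0.12, adjusted p = 0.00721). At 48 h 3 were called, against 7.48%: LAMC1 at 1.73 (SE 0.16, adjusted p = 0.000322), LAMA1 at 1.68 (SE 0.15, adjusted p = 0.000218) and NID2 at 1.10 (SE 0.15, adjusted p = 0.00214). Between 24 and 48 h 2 were called, against 2.96%: NID2 at 1.55 (SE 0.15, adjusted p = 0.000839) and LAMB1 at 0.92 (SE 0.12, adjusted p = 0.00289). NID2 passed the filter through COLO858 alone and was at 0.190 FPKM or less in every MMACSF library, so that its difference is the COLO858 change set against values near 0. Both NID2 calls were lost with 0.1 FPKM added before the logarithm in place of 1 (adjusted p = 0.135 at 48 h and 0.0204 from 24 to 48 h) and with nothing added (0.54 and 0.0681). The LAMB1 call at 24 h was lost with these constants too, after rescaling and without trend, with adjusted p of up to 0.0151.

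The line difference for LAMB2, which rose in both lines, was 0.76 at 24 h (adjusted p = 0.0794, or 0.000731 with the block) and 1.01 at 48 h (0.0183, or 0.000162). LAMC1 differed by 0.78 at 24 h (0.0215, or 0.000599) and by 0.95 from 24 to 48 h (0.0112, or 0.000354), and NID1 by 0.53 at 48 h (0.0562, or 0.00968). NID1, too, passed the filter through COLO858 alone, and its adjusted p was 0.386 with 0.1 FPKM and 0.609 with nothing added. With the block the members called were 4, 5 and 3, against 17.6%, 25.3% and 13.0% of all genes. Each of the 8 libraries of a contrast was left out in turn, and 5 of the 7 calls of the unblocked fit were kept in all 8 refits. The LAMB1 difference at 24 h was lost in each of them, with adjusted p from 0.0184 to 0.0319, and that from 24 to 48 h was kept in 2 of 8, with adjusted p from 0.00917 to 0.015.

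Summed by class, the chain transcripts show how the pool of laminin messages shifted; all 12 laminin chain genes listed are in these sums. The α sum of COLO858 libraries averaged 72.7 ± 6.96 FPKM with DMSO, then 82.3 ± 7.98 after 24 h and 89.4 ± 5.12 after 48 h (SD, n = 2 throughout). The β sum was 131 ± 0.930, 176 ± 4.38 and 263 ± 5.76, and the γ sum 65.8 ± 5.12, 143 ± 8.66 and 265 ± 8.95. The γ sum thus went from 0.913 of the α sum to 1.75 and 2.97 times it, and the β sum from 2.00 times the γ sum to 1.23 and 0.995.

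In MMACSF the α sum was 69.3 ± 10.4, 77.0 ± 0.0368 and 73.8 ± 1.90 FPKM, the β sum 138 ± 7.74, 252 ± 3.74 and 241 ± 16.3, and the γ sum 70.9 ± 3.12, 90.5 ± 9.51 and 86.7 ± 5.30. The γ sum stayed at 1.04, 1.18 and 1.17 times the α sum, while the β sum went from 1.95 to 2.80 and 2.79 times the γ sum. The class that grew against the others was γ in COLO858 and β in MMACSF. These sums are given as values and were not tested. They carry the strand uncertainty stated for LAMA5 and LAMB1, and the replicate difference that went with GC content, given below.

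Within the α class, LAMA1 made up 51.7% of the sum in COLO858 under DMSO, 47.4% at 24 h and 30.7% at 48 h, and LAMA4 39.9%, 39.3% and 52.2%. In MMACSF LAMA1 made up 52.6%, 17.7% and 10.3%, and LAMA4 42.8%, 66.7% and 77.9%. LAMA1 and LAMA4 thus began close to each other in both lines, and LAMA4 was ahead at 48 h in both, further in MMACSF. LAMA5 made up 8.08%, 13.1% and 16.7% of the α sum in COLO858 and 4.31%, 15.4% and 11.7% in MMACSF. Its single libraries were far apart, at 16.5% and 9.78% (24 h) and 20.5% and 13.0% (48 h) in COLO858. In MMACSF they were at 21.7% and 9.08% (24 h) and 13.9% and 9.48% (48 h). The 24 h and 48 h pairs overlapped in both lines. LAMB2 made up 11.8%, 31.2% and 33.7% of the β sum in COLO858 and 30.1%, 33.6% and 47.5% in MMACSF. LAMC1 was at least 97.2% of the γ sum in every library. For the nidogens in COLO858, the ratio of LAMC1 to NID1 was 1.07 under DMSO, 1.59 at 24 h and 3.01 at 48 h, and that of NID1 to NID2 was 38.3, 84.2 and 18.3.

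**Figure D3:**
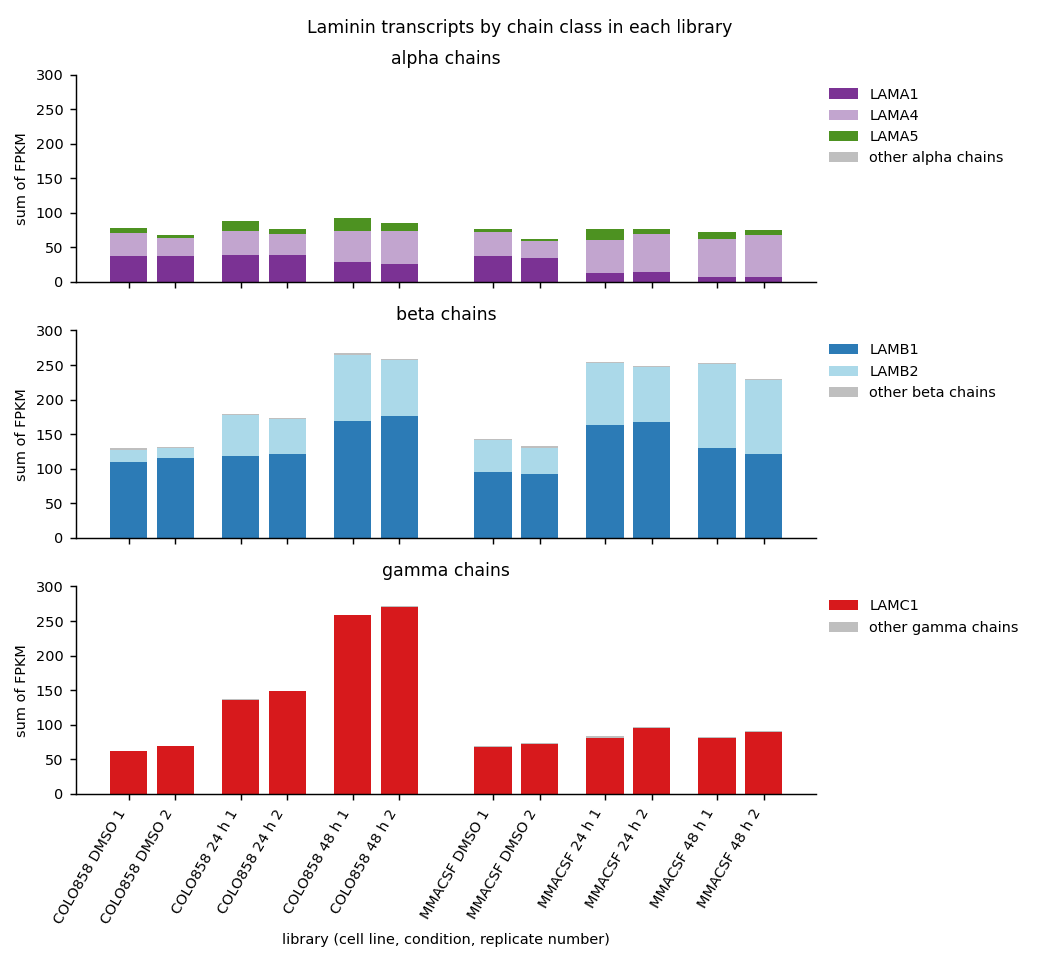
Summed FPKM (vertical axis, from 0) of the α, β and γ chain genes in each of the 12 libraries, with the bar of each library split by gene and its line, condition and replicate number on the horizontal axis. The γ bars, nearly all LAMC1, rise from 65.8 to 265 FPKM in the COLO858 means, and the LAMA1 part of the α bars shrinks in MMACSF.

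By level, the order of the members' means in COLO858 under DMSO began with LAMB1, LAMC1, NID1, LAMA1, LAMA4 and LAMB2, where LAMC1 and NID1 overlapped. At 48 h it began with LAMC1, LAMB1, LAMB2, NID1, LAMA4 and LAMA1, where LAMB2 and NID1 overlapped. In MMACSF it began with LAMB1, LAMC1, LAMB2, LAMA1 and LAMA4 under DMSO, where LAMA1 and LAMA4 overlapped, and with LAMB1, LAMB2, LAMC1, LAMA4, LAMA5 and LAMA1 at 48 h, where LAMB1 and LAMB2 overlapped, as did LAMA5 and LAMA1. Within COLO858 the LAMA1 mean went from rank 2566 under DMSO to rank 3238 at 48 h among genes at 1 FPKM or more, and within MMACSF from rank 2392 to rank 7479.

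Among the other laminin chains, LAMA3 and LAMB4 were under 0.25 FPKM in every library. LAMB3, the β chain of the laminin that anchors epidermis, held 2.90 and 2.31 FPKM in COLO858 under DMSO, 1.44 and 1.04 at 24 h and 2.03 and 1.58 at 48 h, and 2.47 and 2.10, 1.51 and 1.20, and 0.974 and 0.932 in MMACSF. LAMC3 could be tested in MMACSF alone, where it ran from 0.714 to 2.18 FPKM. In 0 of the 6 comparisons within a line was either called by limma, with 1 unadjusted p under 0.05 in COLO858 at 24 h and 2 in MMACSF at each drug time. With the block LAMB3 was called in COLO858 at 24 h (log2 fold-change −0.69, adjusted p = 0.00374), where 45.0% of all genes were. It was also called with the block in MMACSF at 48 h (−0.75, 0.00998), where 30.1% were.

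Laminin receptors are the integrins and dystroglycan through which cells hold the α chain. Of the 9 listed, 8 were tested in each line. COLO858 had 2 called at each drug time, all of them higher, against 9.82% and 9.47% of all genes. Its list medians were 0.22 and 0.55 on the log2 scale. MMACSF had 0 called at either time, against 5.83% and 8.83%, with list medians of 0.31 and −0.12. The unadjusted p was under 0.05 for 6 and 3 of them in MMACSF. Fitting the block called 4 (3 higher, 1 lower) and 7 (5 higher, 2 lower) at 24 and 48 h of COLO858, where 45.0% and 43.7% of all genes were, and 4 at each time in MMACSF (3 higher at 24 h, 1 higher at 48 h), where 26.1% and 30.1% were. ITGA1, the integrin α1 subunit that binds collagen IV and laminin, held 1.43 and 2.05 FPKM in COLO858 under DMSO, 6.44 and 8.57 at 24 h and 19.2 and 23.7 at 48 h, and rose by 3.04 at 48 h (SE 0.22, adjusted p = 0.00134). DAG1, dystroglycan itself, was the other, chosen for naming after its values were seen, at 45.7 and 42.7, 78.8 and 79.5, and 115 and 115 FPKM, a rise of 1.36 at 48 h (SE 0.11, adjusted p = 0.00206). The line difference at 48 h was 2.72 for ITGA1 (adjusted p = 0.000596) and 1.19 for DAG1 (adjusted p = 0.000534). Of the 8 receptors tested in COLO858, 6 were higher and 2 lower at 48 h. The 2 lower, ITGA3 and ITGA7, named after their values were seen, had means 0.479 and 0.499 of DMSO. Neither was called without the block. ITGA6 and ITGB1 had means 1.29 and 1.17 of DMSO, and their libraries overlapped those of DMSO.

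Basement membrane partners comprise collagen IV chains, perlecan, agrin and other proteins that bind the laminin network. Of 16 listed, 11 were tested in COLO858, where 3 were called at 24 h (2 higher, 1 lower), against 9.82% of all genes. At 48 h 4 were called there, all higher, against 9.47%. In MMACSF 9 were tested, with 0 called at 24 h, against 5.83% of all genes. Of these 9, 5 had an unadjusted p under 0.05 at 24 h. At 48 h 1 of them was called, lower, against 8.83%. With the block, 6 were called at each time in COLO858 (3 higher at 24 h, 4 higher at 48 h), against 45.0% and 43.7% of all genes. In MMACSF 4 and 3 were called with the block (2 higher each time), against 26.1% and 30.1%. The list had medians of −0.43 and 0.46 at the drug times of COLO858, and of 0.23 and 0.31 at those of MMACSF. SPARC, a secreted collagen-binding protein, held 132 and 162 FPKM in COLO858 under DMSO, 502 and 598 at 24 h and 1564 and 1958 at 48 h. In MMACSF the same gene held 347 and 418, 225 and 259, and 185 and 206 FPKM. SPARC thus rose by 3.57 in COLO858 at 48 h (SE 0.18, adjusted p = 0.0006) and fell by 0.96 in MMACSF (SE 0.15, adjusted p = 0.00985), a line difference of 4.53 (adjusted p = 1.84e-05).

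The other 3 called in COLO858 at 48 h, named after their values were seen, were HSPG2 (perlecan) at 2.17, COL4A5 at 2.13 and NTN4, a netrin that binds the laminin γ1 arm, at 1.85, with adjusted p of 0.0053, 0.00182 and 0.0032. COL4A1 and COL4A2, likewise chosen with values known, did not share the COL4A5 rise. COL4A1 was the partner whose fall passed after 24 h of drug (−1.24, adjusted p = 0.00428). Its COLO858 mean was then 0.358 of the DMSO mean, returning to 0.979 by 48 h. COL4A2 stood at 0.377, later 0.711, of its own DMSO mean, called only when the block was fitted. In MMACSF at 48 h HSPG2 was at 1.46 (adjusted p = 0.0159, or 0.00242 with the block), COL4A5 at 1.06 (0.0126, or 0.00242) and NTN4 at 0.36 (0.151). The tests of the line difference at 48 h gave adjusted p of 0.308 for HSPG2, 0.0155 for COL4A5 and 0.00226 for NTN4, so that perlecan was not shown to differ between the lines while NTN4 was, on the log2(FPKM + 1) scale. NTN4 averaged only 0.192 FPKM in DMSO-treated COLO858 and 0.826 one day into treatment. It reached the minimum in this line solely through its 48 h mean of 3.32. The scale understates its rise, which was 17.3-fold in the COLO858 means, against 5.51-fold for HSPG2 and 5.07-fold for COL4A5.

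**Figure D4:**
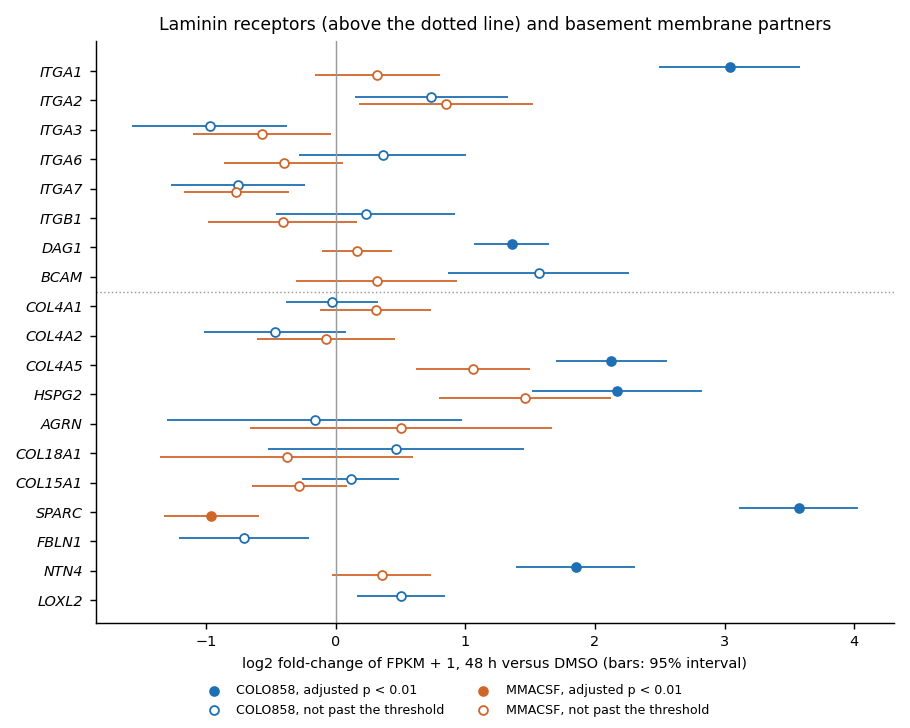
Log2 fold-change of FPKM + 1 at 48 h against DMSO (horizontal axis, 95% intervals from limma) of the laminin receptors, above the dotted line, and the basement membrane partners, below it. Filled points passed the adjusted p threshold; SPARC is filled on opposite sides of 0 in the 2 lines, at 3.57 in COLO858 and −0.96 in MMACSF.

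The enzymes that build the sugar chain by which dystroglycan binds laminin were tested in 11 of 12 genes listed. COLO858 had 1 called at 24 h, which was lower, against 9.82% of all genes. At 48 h it had 2 called, 1 in each direction, against 9.47%. MMACSF had 0 called at either time, against 5.83% and 8.83% of all genes, and 2 had an unadjusted p under 0.05 each time. In the blocked fit, 1 and 5 (2 higher, 3 lower) were called in COLO858, where 45.0% and 43.7% of all genes were. In MMACSF 0 and 2, both higher, were called with the block, against 26.1% and 30.1%. LARGE, which adds the laminin-binding repeat, held 9.34 and 9.41 FPKM in COLO858 under DMSO, 12.1 and 11.2 at 24 h and 22.5 and 19.3 at 48 h, and rose by 1.07 at 48 h (SE 0.14, adjusted p = 0.00715). GYLTL1B, its close relative, held 2.25 and 1.80, 0.301 and 0.230, and 0.0665 and 0.0752 FPKM, and fell by 1.49 (SE 0.14, adjusted p = 0.00294). The log2(FPKM + 1) scale understates that fall, as the 48 h mean was 0.0350 of the DMSO mean. GYLTL1B entered the test through its DMSO mean of 2.03 FPKM alone. Its drug means, 0.265 followed by 0.0709, lay under the minimum, so the size of its fall rests on values near 0. The pair of related enzymes moved in opposite directions in COLO858, and the medians of the list were 0.15 and −0.033 there and 0.10 and 0.020 in MMACSF at 24 and 48 h.

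Replicates 1 and 2 differed in a way that touched the members unequally. LAMA5, with 66.4% G or C in its longest coding transcript, was higher in replicate 1 in 6 of 6 groups, by 0.44 to 1.15 on the log2 scale, and LAMB2, at 60.3%, in 6 of 6, by 0.15 to 0.34. LAMC1, at 48.8%, was lower in replicate 1 in 6 of 6 groups, with differences of −0.23 to −0.068. LAMA4, the member lowest in G or C at 45.1%, was higher in replicate 1 in 3 of 6 groups. Its differences ran from −0.20 to 0.54, so that not every member followed its GC content. Across the tested genes with a known transcript, 82.1% to 82.6% of all, the Spearman correlation between the replicate difference and GC content was 0.675 to 0.871 in the 6 groups; genes are not independent, and no p is given. Every group holds 1 library of each number, and what part this difference has in the changes was not tested beyond the block.

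**Figure D5:**
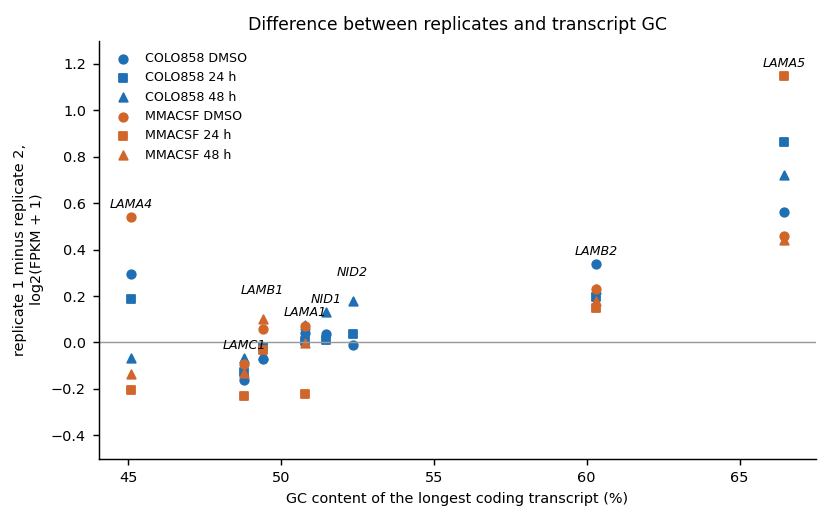
Difference between replicate 1 and replicate 2 in log2(FPKM + 1) (vertical axis) against the GC content of each member's longest coding transcript (horizontal axis), with 1 point per group, for members tested in that line. LAMA5, at 66.4%, lies above 0 in all 6 groups and LAMC1, at 48.8%, below 0 in all 6. LAMA4, at 45.1%, lies on both sides of 0.

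The genes most alike in pattern to the chains of laminin-111 were ranked by Pearson's r of log2(FPKM + 1), centred on each line's mean, over the 12 libraries and 11694 genes. For LAMC1 these were RHOJ, a small GTPase (r = 0.997), ITGA1 (r = 0.994) and GPM6B, a membrane glycoprotein (r = 0.991). RHOJ went from a mean of 7.54 FPKM under DMSO to 26.3 and 75.8 in COLO858 and from 7.13 to 11.1 and 10.6 in MMACSF. For LAMB1 they included ARSJ (r = 0.988) and CSF1 (r = 0.942), and for LAMA1 ATP5J (r = 0.973), SFPQ (r = 0.973) and PKM2 (r = 0.965). PKM2, a glycolytic enzyme, had means of 1302, 957 and 734 FPKM in COLO858 and 1492, 609 and 361 in MMACSF. The points share libraries, and the values are a description.

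Markers of other cell types that make laminin were checked in the same libraries. The 5 endothelial markers summed to at most 0.794 FPKM in any library, with 0 of them at 1 FPKM or more in a group, and the 4 immune markers to at most 1.08. Of the 6 fibroblast markers, the sum was 9.29 to 12.1 FPKM in COLO858 under DMSO, 17.8 to 20.8 at 24 h and 24.9 to 35.3 at 48 h, and 57.9 to 79.2, 45.1 to 53.5 and 20.2 to 28.9 in MMACSF. LUM, a proteoglycan core protein, was the largest of them in both lines, with means of 6.78, 15.7 and 20.5 FPKM in COLO858 and 62.8, 43.2 and 22.2 in MMACSF, while the others were at most 6.88 FPKM in any library. In COLO858 5 of the 6 were tested at 48 h, with 2 called higher and 1 lower, against 9.47% of all genes called. COL3A1, a fibrillar collagen chain, had means of 0.165, 2.12 and 6.56 FPKM there, COL1A1 0.177, 0.505 and 1.35, and COL1A2 2.62, 0.486 and 0.113, values named after they were seen. In MMACSF 0 of 3 were called by limma at either drug time, with 0 and 3 at an unadjusted p under 0.05 and 1 and 2, all lower, called with the block. The 5 epithelial markers, mostly KRT18, summed to 62.1 to 71.7 FPKM in COLO858 under DMSO and 10.8 to 11.6 at 48 h, and to 31.0 to 37.2 and 11.7 to 16.9 in MMACSF. These sums moved with the drug beside the laminin chains, and their part in the changes was not tested.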

How the data were processed

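The authors prepared strand-specific mRNA libraries, aligned reads of the 12 libraries to hg19 with TopHat at its defaults and computed FPKM with Cuffdiff on Galaxy, and deposited the FPKM as 1 table per line. Program versions, gene annotation, the strand setting of the counting and library scaling are not given in the sources used here, and reads per library could not be recovered. FPKM of transcripts that share sequence or overlap may be split or merged by that counting. The MIR4461 share is of summed FPKM, which is per length, and is not its share of the reads. What MIR4461 does to the FPKM of other genes in its library was not tested.

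The log2(FPKM + 1) values of genes with a group mean of 1 FPKM or more were fitted with limma 3.58.1 in R 4.3.3 (3 groups per line, empirical Bayes with trend, two-sided), with Benjamini-Hochberg adjustment over all genes tested and a threshold of 0.01. Line differences came from a model of 6 groups over 12 libraries. No 2 libraries were identical (0 pairs). On simulated data with 200 genes changed by a log2 difference of 2, between 136 (line difference at 48 h, 13595 genes simulated) and 181 (MMACSF, 48 h versus 24 h, 12599 genes simulated) were recovered. All 9 members and 83.7% of all symbols were found in GENCODE v44 lifted to GRCh37.

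Replicate numbers come from the sample titles, which do not say what they share. Differences between replicate 1 and 2 correlated between groups of a line, over genes tested, at 0.196 to 0.211 in COLO858 and 0.0628 to 0.113 in MMACSF, and without small RNA genes at 0.757 to 0.791 and 0.590 to 0.673; the fit without the block was kept as the main fit.

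Members and lists were chosen with earlier results of these data known. All members are named; of the other lists, the largest rise and fall past the threshold at 48 h in each line; and for LAMA1, LAMB1 and LAMC1, the 3 genes of highest correlation. Results of 2 genes that these rules name are not reported here. Alternatives were another added constant, minimum, threshold and scaling, the block, no trend, only the 4 libraries compared, and each library left out.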

Additional observations from a re-analysis of the deposited data

Results flagged for a closer look

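Of the members, 7 differences between the lines' responses, COLO858 minus MMACSF on the log2(FPKM + 1) scale, passed the test of the difference itself (limma, Benjamini-Hochberg over 13595 genes). Each line has 2 libraries per condition.

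LAMA1 differed by 1.40 at 24 h (adjusted p = 0.00107) and by 1.68 at 48 h (adjusted p = 0.000218): it fell in MMACSF at both times, while its 24 h libraries in COLO858 lay above both DMSO libraries as deposited (a difference of 0.05 that was −0.057 after rescaling of the libraries) and its 48 h libraries below. LAMC1 differed by 1.73 at 48 h (adjusted p = 0.000322), with all drug libraries above DMSO in both lines. LAMB1 differed by −0.73 at 24 h (adjusted p = 0.00721). In the change from 24 to 48 h it differed by 0.92 (adjusted p = 0.00289). Its highest libraries were at 24 h in MMACSF and at 48 h in COLO858. Within neither line was its change from 24 to 48 h called without the block. NID2 differed by 1.10 at 48 h (adjusted p = 0.00214) and by 1.55 in the change from 24 to 48 h (adjusted p = 0.000839), but NID2 passed the filter through COLO858 alone, no MMACSF library held more than 0.190 FPKM of it, and both calls depend on the constant added: they were lost with 0.1 FPKM added (adjusted p = 0.135 and 0.0204) and with nothing added (0.54 and 0.0681). When the replicate number entered the fit as a block, at the constant of 1 FPKM, adjusted p of the 7 ran from 2.35e-05 to 0.00188. The LAMB1 difference at 24 h did not pass with 0.1 FPKM or nothing added, after rescaling or without trend, where its adjusted p reached 0.0151.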

How the results depend on the processing

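Depth is unknown and each group holds 2 libraries. Under the alternatives other than leaving out a library, 509 values of single members kept their direction and side of the threshold, 30 gained it, 20 lost it and 5 turned. The replicate block, fitted within each line, made 4, 8 and 5 members called in COLO858 (24 h, 48 h and 48 h versus 24 h; 2, 3 and 1 without it), and 4, 5 and 3 called for the line differences (2, 3 and 2 without it); in MMACSF it gave 4, 3 and 0 (3, 2 and 0 without it). The block added calls and changed no other call. Over all genes it called 5719, 5549 and 2280 in COLO858 and 3284, 3790 and 32 in MMACSF, against 1247, 1202, 175, 734, 1113 and 28; for the line differences it called 2396, 3434 and 1774, against 505, 1017 and 403.

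The member counts in this paragraph are given without the share of all genes called under the same setting. They describe how stable the calls are and are not results about the members. With a threshold of 0.05, members called were 6 in COLO858 at 48 h, 2 in COLO858 from 24 to 48 h and 4 in MMACSF at 48 h. With only the 4 libraries compared they were 1 in COLO858 at 24 h, 0 from 24 to 48 h and 0 in MMACSF at 24 h, where fewer libraries give the spread. COLO858 from 24 to 48 h gave 0 with no minimum, where the cause was not tested. With a minimum of 10 FPKM it gave 0 and the line difference from 24 to 48 h gave 1, because NID2, at 5.19 FPKM or less, is then not tested. MMACSF at 24 h gave 1 after median-ratio rescaling and 1 without trend, and the line difference at 24 h gave 1 without trend. With 0.1 FPKM or nothing added, the line differences at 24 h and from 24 to 48 h gave 1 each and that at 48 h gave 2, without NID2. After rescaling, the β sums were 135 and 167 FPKM in COLO858 under DMSO and at 24 h, the γ sum 74.0 in MMACSF under DMSO, and the α and β sums 74.3 and 243 in MMACSF at 24 h.

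With a library left out (a lone library is then assumed to vary like the other groups), 0 members were called within either line, and 1, 3, and 1 to 2 for the line differences at 24 h, at 48 h and from 24 to 48 h. Over all genes the calls were 66 to 92, at most 138, and 29 to 39 in COLO858, 45 to 70, 85 to 125 and 22 to 43 in MMACSF, and 216 to 288, 568 to 710 and 187 to 258 for the line differences.

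Values that turned sign were none of them called. Rescaling gave −0.057 for LAMA1 and −0.030 for LAMB1 in COLO858 at 24 h, and 0.044 for NID1 from 24 to 48 h. With a library left out, NID1 from 24 to 48 h ranged from −0.092 to 0.040 in COLO858, and LAMA5 from −0.90 to 0.25 and LAMC1 from −0.17 to 0.058 in MMACSF. The line difference of NID1 at 24 h was −0.40 with 0.1 FPKM and −1.17 with nothing added, and that of LAMA5 at 48 h ranged from −0.42 to 0.30 without a library.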
